A study of Mus musculus with 4 samples.

Results

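The genes described here are 9 ligands and receptors of hepatocyte growth factor, epidermal growth factor and neuregulin signalling: Hgf, Egf, Areg and Nrg1 on the ligand side, and Met, Egfr, Erbb2, Erbb3 and Erbb4 on the receptor side. They were chosen by symbol, and all 9 were found among the 32292 features of the count files. Their transcripts were counted in nuclei of male mouse livers by droplet-based single-nucleus RNA sequencing. CKO livers carried a knockout of Rbpj, which encodes the transcription factor through which Notch receptors act, limited to hepatic progenitor cells, and WT livers were wild type, with 2 libraries per genotype. All mice had eaten a DDC diet for 4 weeks, starting at 10 to 11 weeks of age. DDC injures bile ducts and makes duct-like cells spread into the lobule. Every library is from an injured liver, so the data hold no comparison with an uninjured one. The labels give neither the Cre driver of the knockout nor whether a library came from 1 animal, so p-values measure the spread between libraries, which may be technical.

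HGF is made by mesenchymal cells and acts on the receptor tyrosine kinase MET of epithelial cells, where it drives growth and repair of the liver. EGF and amphiregulin (Areg) bind EGFR, which is abundant on hepatocytes and is needed for their proliferation after injury. Neuregulin 1 (Nrg1) binds ERBB3 and ERBB4. ERBB2 has no known ligand of its own and pairs with the other receptors of the family, while ERBB3 has little kinase activity and signals through its partner.

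The stretches before the transcription start of Hgf and Erbb4 are shown as those of a ligand with its highest mean in mesenchymal-like nuclei and a receptor with its highest mean in cholangiocyte-like nuclei, and because RBPJ, the factor that CKO progenitor cells lack, binds DNA at a TGGGAA core. The sequences are the 250 bases before the start in RefSeq (GRCm38.p6), written 5′ to 3′ on the gene's strand, with any TGGGAA of either strand in capitals. The Hgf window printed is chr5:16553245-16553494 on the plus strand and the Erbb4 window is chr1:69108060-69108309 on the minus strand.
Hgf: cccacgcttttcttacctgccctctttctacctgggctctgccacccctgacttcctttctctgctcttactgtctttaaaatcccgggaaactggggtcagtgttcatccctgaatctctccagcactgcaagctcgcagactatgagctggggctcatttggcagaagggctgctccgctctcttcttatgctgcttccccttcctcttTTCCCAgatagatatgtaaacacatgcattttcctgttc
Erbb4: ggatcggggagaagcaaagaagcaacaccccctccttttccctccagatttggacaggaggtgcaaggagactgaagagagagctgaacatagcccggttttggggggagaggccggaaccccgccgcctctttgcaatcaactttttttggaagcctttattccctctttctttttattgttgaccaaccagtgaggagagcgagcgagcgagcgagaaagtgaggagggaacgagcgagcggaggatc
The printed Hgf window holds the core once, on the opposite strand, beginning 39 bases before the start, and the Erbb4 window holds none. A second Hgf window, chr5:16553651-16553900 on the plus strand, is not printed and holds none. Windows were found for 7 of the 9 genes, and 3 of their 9 windows (Hgf, Areg and Met) hold the core, against 21.6% of the 32851 windows of all genes. A match describes the letters in this window and is not a binding site.

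The libraries held 38003108 UMIs (unique molecular identifiers, each counting 1 captured transcript) in 16000 barcodes and 12261329 UMIs in 5184 barcodes in CKO replicates 1 and 2, against 45620141 UMIs in 16000 barcodes and 13914845 UMIs in 6480 barcodes in WT replicates 1 and 2. Of 39017 kept barcodes, 18266 fell in clusters that resembled a liver cell class by its markers, and 20751 stayed unnamed. The named nuclei comprised 5551 hepatocyte-like, 5354 macrophage-like, 2649 endothelial-like, 2245 cholangiocyte-like and 1378 mesenchymal-like nuclei, the 5 classes with at least 20 nuclei in each library. CKO replicate 2 gave 33 cholangiocyte-like nuclei. Hepatocyte-like nuclei lay almost wholly in a different cluster for each library, CKO replicate 1 held its endothelial-like nuclei mostly in another cluster than the other libraries, and macrophage-like nuclei lay mostly in 1 cluster in CKO replicate 1 and in a pair of others in WT replicate 1. Between 19 and 114 barcodes were shared by a pair of libraries. In cholangiocyte-like nuclei Rbpj was counted 107 and 2 times in the CKO libraries and 348 and 44 times in the WT libraries. These 3′ tags need not lie in the deleted part, so they do not check the knockout. Rbpj had log2 changes of CKO over WT between -0.62 in macrophage-like and 0.12 in endothelial-like nuclei and was called in none of the 5 classes by edgeR's quasi-likelihood test (smallest adjusted p = 0.907).

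Levels are given in CPM, the gene's UMIs summed over the nuclei of a class in a library and scaled by all UMIs of that class. Droplets also take up RNA set free from other cells. Each level is therefore set beside an estimate of this free RNA, read from the low-UMI barcodes of its own library, some of which may hold nuclei. Every barcode had at least 1823 and 1543 UMIs in CKO and 1817 and 1465 in WT libraries. The medians were 2042 and 1896 in CKO and 2267 and 1722 in WT libraries. In endothelial-like nuclei the estimated share of free RNA was 0.80 and 0.87 in CKO and 0.73 and 0.75 in WT libraries. Levels are compared between classes, not between genes, because counts of 3′ tags from nuclei depend on gene structure: Nrg1 spans 1069.5 kb and Erbb4 spans 1075.9 kb of the genome, while Erbb3 spans 22.1 kb.

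Hgf (ENSMUSG00000028864, chromosome 5, 16553495 to 16620152, plus strand, GRCm38) was highest in mesenchymal-like nuclei. It stood at 1092 and 437 CPM in CKO replicates 1 and 2 and at 1200.0 and 581 CPM in WT replicates 1 and 2, on 1138, 75, 2392 and 250 UMIs. The level was 19.0 to 25.4 times that of free RNA, and it was higher in both libraries numbered 1 than in both numbered 2. Mesenchymal-like nuclei held 49.8% and 50.0% of the Hgf UMIs of named nuclei in the CKO libraries and 53.5% and 54.8% in the WT libraries, although they were 404 of 5239 and 88 of 2158 named nuclei in CKO and 684 of 8522 and 202 of 2347 in WT.

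Endothelial-like nuclei came second, with 191 and 76.6 CPM of Hgf in CKO and 224 and 195 CPM in WT libraries. No library's endothelial level reached the lowest mesenchymal level, and each was 2.80 to 7.18 times that of free RNA. The summed level of the 12 mesenchymal markers in these nuclei was 261 and 164 CPM in CKO and 402 and 234 CPM in WT libraries. That was near the free RNA level and far below the 3326 to 5014 CPM of mesenchymal-like nuclei. In CKO 1 and 1 markers, and in WT libraries 2 and 3, had 5 UMIs or more and stood 1.5 times or more above free RNA. In macrophage-like nuclei Hgf stood at 94.5 and 46.6 CPM in CKO and at 121 and 73.9 CPM in WT libraries, 1.44 to 2.70 times the free RNA level. Cholangiocyte-like and hepatocyte-like nuclei lay at 0.65 to 1.14 times that level and thus near what free RNA gives. The order of the class means was mesenchymal, endothelial, macrophage, cholangiocyte and hepatocyte, and it held within each of the 4 libraries, while the ranges of all neighbours after the first pair overlapped.

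**Figure D1:**
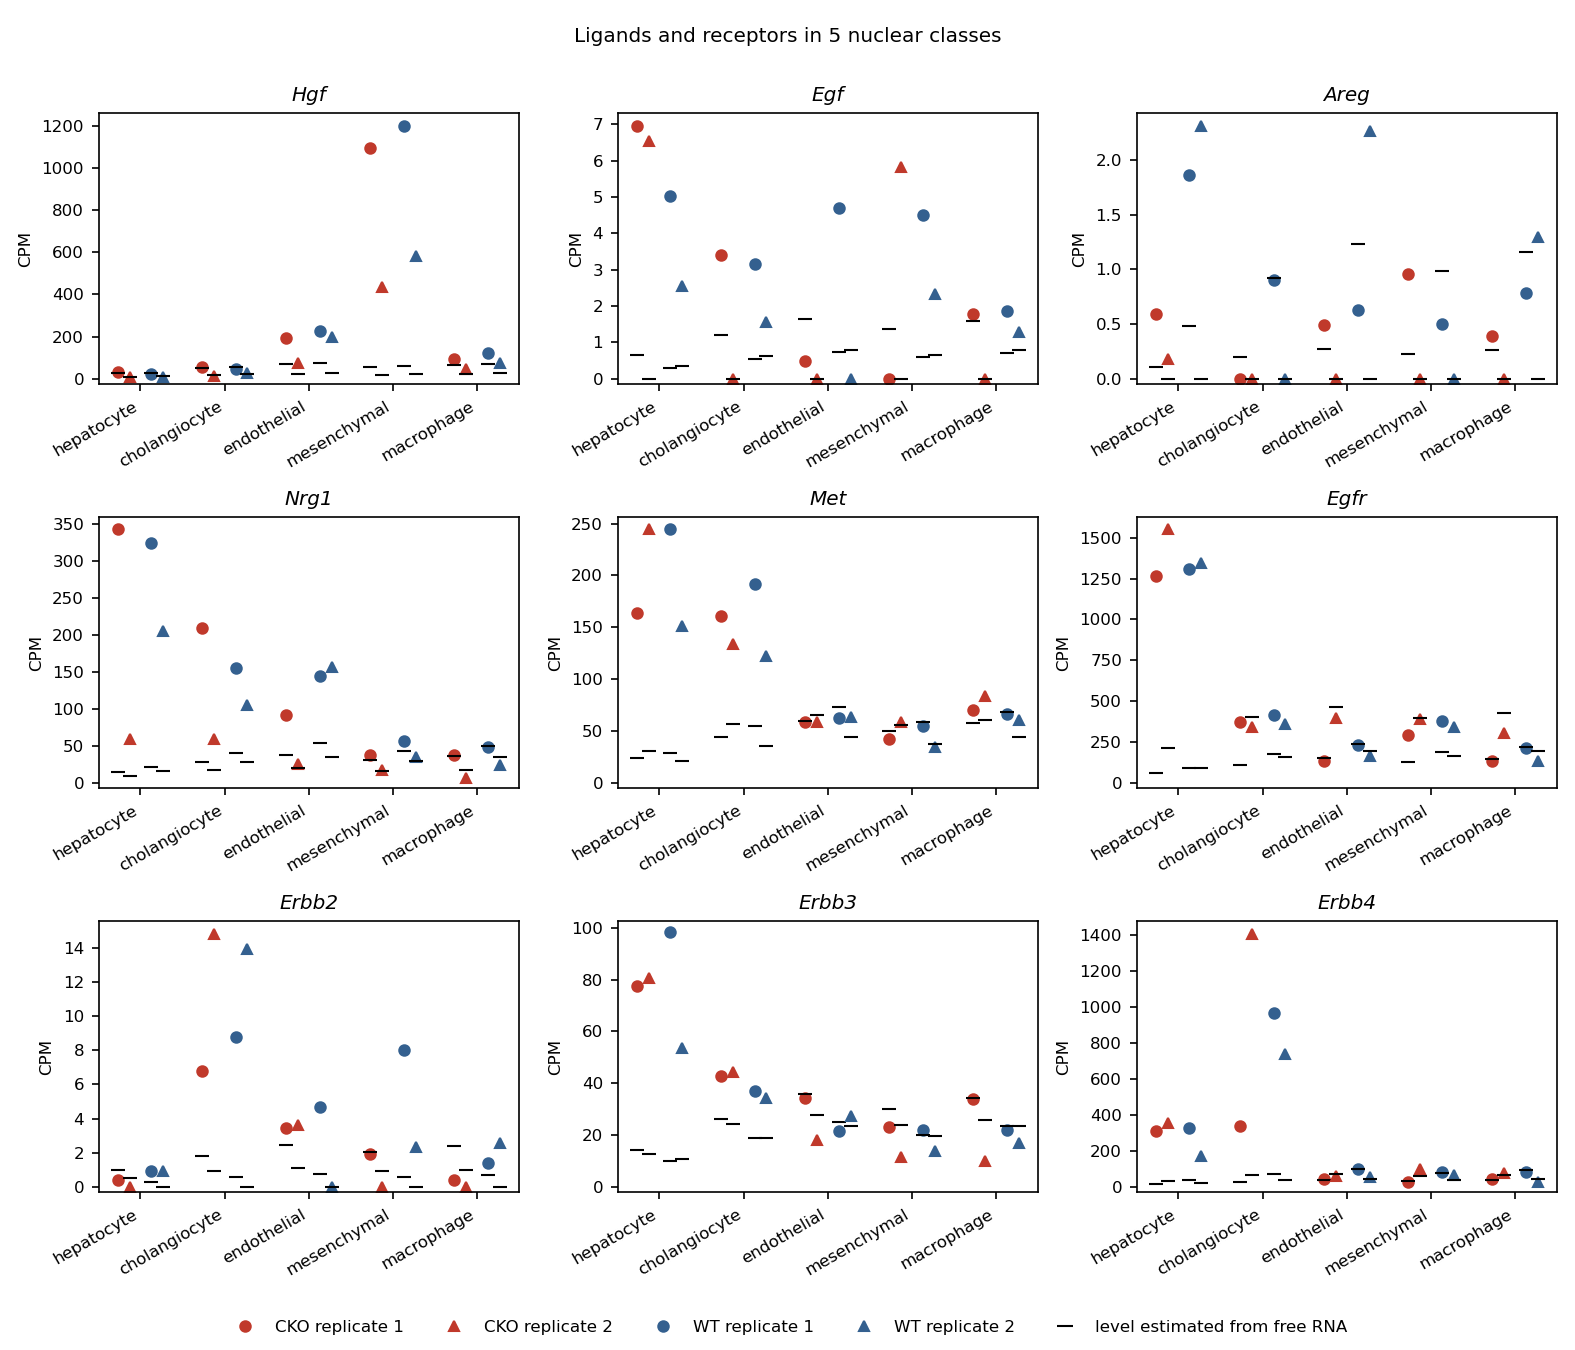
Level of each ligand and receptor in the 5 classes, in CPM, with 1 point per library (CKO left of WT in each class) and a black dash at the level estimated from free RNA. Hgf lies far above the dashes in mesenchymal-like nuclei and Erbb4 in cholangiocyte-like nuclei, while Met, Egfr and Erbb3 have their highest means in hepatocyte-like nuclei.

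Mesenchymal-like nuclei were divided into 12 sub-clusters by clustering that left out the 9 genes, of which the markers named 1 as stellate-like and 1 as portal fibroblast-like. A name required markers raised over the rest of the same class, so an unnamed sub-cluster may hold the same cell types. The stellate-like sub-cluster, led by Hhip and Colec10, had 1619 CPM of Hgf in CKO replicate 1 (32 nuclei) and 1910 and 1098 CPM in the WT libraries (145 and 35 nuclei). The portal fibroblast-like sub-cluster, led by Kcnq3 and Ltbp2, had 513 CPM in CKO replicate 1 (52 nuclei) and 569 and 308 CPM in the WT libraries (133 and 32 nuclei). An unnamed sub-cluster chosen after its values were seen, led by Csmd3, Ebf1 and C7, had 381 CPM in CKO replicate 1 (13 nuclei) and 209 and 181 CPM in the WT libraries (40 and 12 nuclei). In each of these 3 libraries the stellate-like level was the highest of the 3 and the Csmd3 level the lowest, and the Csmd3 level was also the lowest of all sub-clusters with at least 10 nuclei in the library. Levels of the other sub-clusters are not given here, so the stellate-like level is not ranked among all 12. CKO replicate 2 held 5, 2 and 0 nuclei of the 3 sub-clusters, too few for a level.

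Hgf also differed between the named endothelial-like sub-clusters given here, and the remaining sub-clusters are not described. Of the endothelial-like sub-clusters with a name, the sinusoidal-like one had 281 CPM in CKO replicate 1 and 302 and 304 CPM in the WT libraries, on 62, 131 and 14 UMIs. A central vein-like sub-cluster led by Rspo3 had 79.8 CPM in CKO replicate 1 and 87.4 and 0 CPM in the WT libraries, on 9, 12 and 0 UMIs, beside 65.1, 69.6 and 26.8 CPM expected of free RNA. An artery- or portal vein-like sub-cluster led by Col8a1, Dkk2 and Bmx had 90.5 CPM in CKO replicate 1 and 72.0 and 61.2 CPM in the WT libraries, on 4, 15 and 2 UMIs. Free RNA would give the whole endothelial-like class 68.3 CPM in CKO replicate 1 and 73.7 and 27.2 CPM in the WT libraries. The 72.0 CPM of WT replicate 1 was thus near the free RNA level. These sub-cluster values are descriptions, since the nuclei were grouped by their own transcripts.

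Egf (ENSMUSG00000028017, chromosome 3, 129677565 to 129755316, minus strand), the founding ligand of the family, was counted 279 times in all libraries together. Hepatocyte-like nuclei held 137 of these UMIs, at 6.96 and 6.54 CPM in CKO and 5.03 and 2.55 CPM in WT libraries, on 35, 37, 54 and 11 UMIs. Both CKO libraries lay above both WT libraries. Each of the other 4 classes had at most 22 UMIs in the 4 libraries together. Areg (ENSMUSG00000029378, chromosome 5, 91139599 to 91148432, plus strand), an injury-induced EGFR ligand, was counted 86 times in all. In hepatocyte-like nuclei it stood at 0.597 and 0.177 CPM in CKO and at 1.86 and 2.32 CPM in WT libraries, on 3, 1, 20 and 10 UMIs. Both CKO libraries lay below both WT libraries, but Areg had too few counts to enter the test in any class.

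Nrg1 (ENSMUSG00000062991, chromosome 8, 31814551 to 32884029, minus strand) was found above free RNA in hepatocyte-like, cholangiocyte-like and part of the endothelial-like nuclei. Hepatocyte-like nuclei had 343 and 58.9 CPM in CKO and 325 and 205 CPM in WT libraries, 6.63 to 22.9 times the free RNA level. The CKO libraries were unlike each other and enclosed both WT values. Cholangiocyte-like nuclei had 209 and 59.4 CPM in CKO and 155 and 105 CPM in WT libraries, on 308, 4, 686 and 68 UMIs, and again the CKO values enclosed those of WT. Endothelial-like nuclei had 91.9 and 25.5 CPM in CKO and 145 and 157 CPM in WT libraries, on 188, 7, 464 and 69 UMIs. There the groups did not overlap, and CKO replicate 2 stood at 1.32 times its free RNA level. Mesenchymal- and macrophage-like nuclei ranged over 0.37 to 1.32 times the free RNA level.

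Within the endothelium Nrg1 was concentrated in vessels with artery or portal vein markers. The Col8a1, Dkk2 and Bmx sub-cluster had 724 CPM in CKO replicate 1 and 1013 and 1439 CPM in the WT libraries, on 32, 211 and 47 UMIs in 18, 84 and 18 nuclei. Free RNA would give 37.2, 51.1 and 33.6 CPM in these libraries, and CKO replicate 2 held 1 nucleus with 1 UMI. A second sub-cluster with artery or portal vein markers, led by Flrt2, Mecom and Vegfc, had 227 and 53.3 CPM in CKO and 309 and 168 CPM in WT libraries, on 69, 2, 102 and 6 UMIs. In the sinusoidal-like sub-cluster Nrg1 stood at 22.7 CPM in CKO replicate 1 and at 53.0 and 21.7 CPM in the WT libraries, beside 34.9, 49.0 and 32.4 CPM expected of free RNA. In the central vein-like sub-cluster it stood at 124 CPM in CKO replicate 1 and at 29.1 and 0 CPM in the WT libraries, on 14, 4 and 0 UMIs. Among these named sub-clusters Hgf was highest in the sinusoidal-like one and Nrg1 in the one led by Col8a1, in each library with at least 10 nuclei of each.

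**Figure D2:**
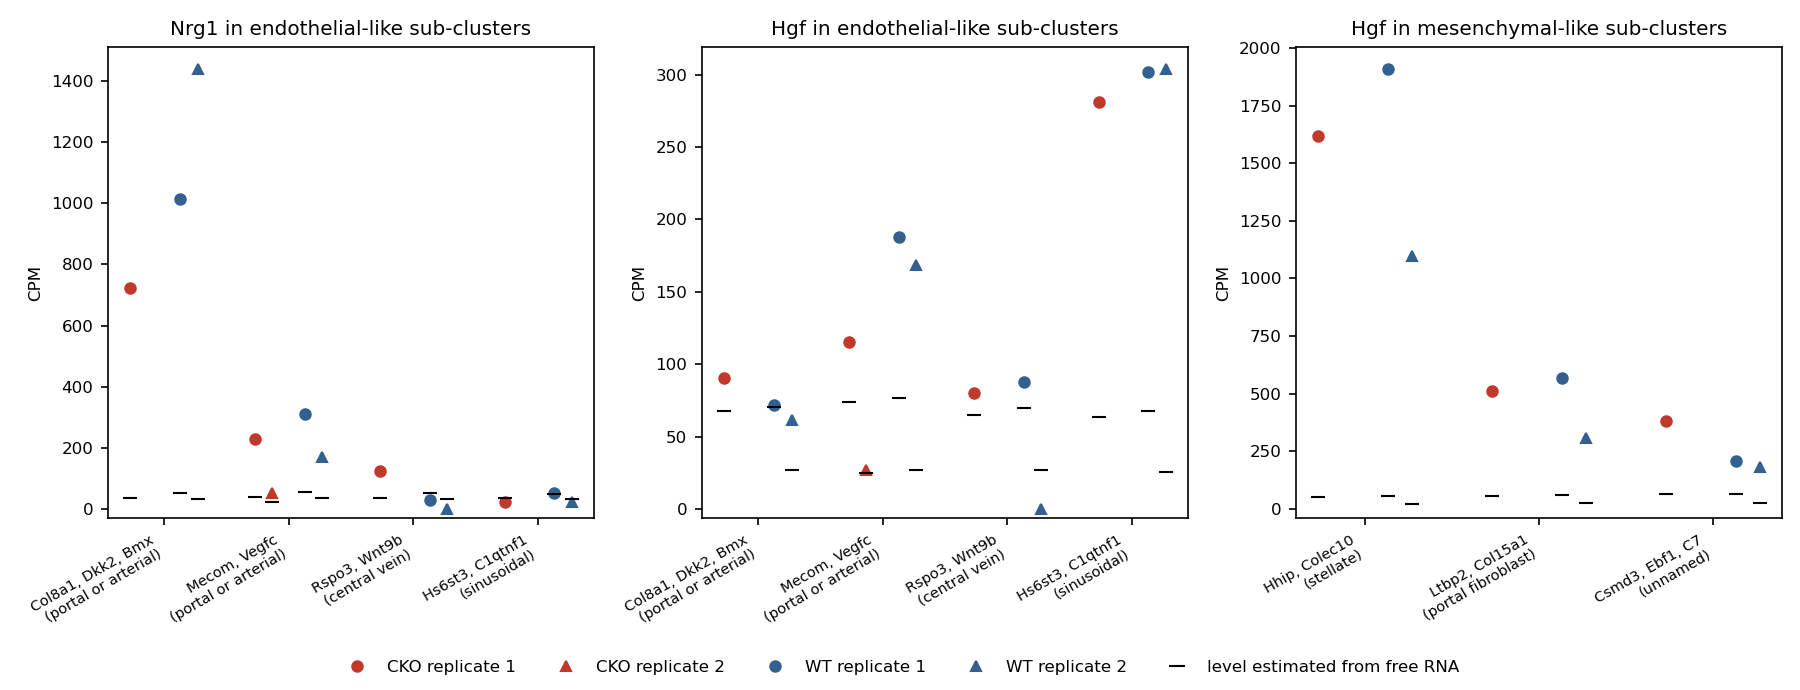
Nrg1 and Hgf in named endothelial-like sub-clusters and Hgf in 3 mesenchymal-like sub-clusters, in CPM, with 1 point for each library that has at least 10 nuclei of the sub-cluster (CKO left of WT) and a black dash at the free RNA level. Nrg1 is highest in the Col8a1 sub-cluster (724 to 1439 CPM), and Hgf is higher in the sinusoidal-like than in the central vein-like sub-cluster in each library shown.

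Met (ENSMUSG00000009376, chromosome 6, 17463800 to 17573980, plus strand), the HGF receptor, was found above free RNA in the 2 epithelial classes. Hepatocyte-like nuclei had 163 and 245 CPM in CKO and 245 and 151 CPM in WT libraries, 6.85 to 8.50 times the free RNA level. Cholangiocyte-like nuclei had 161 and 134 CPM in CKO and 192 and 123 CPM in WT libraries, 2.36 to 3.66 times that level. The ranges of the 2 classes overlapped, and hepatocyte-like nuclei were the higher in 4 of 4 libraries. Endothelial-, mesenchymal- and macrophage-like nuclei ranged over 0.84 to 1.44 times the free RNA level. The class with most Hgf and the classes with Met were therefore separate: mesenchymal-like nuclei had 42.2 and 58.3 CPM of Met in CKO and 54.7 and 34.9 CPM in WT libraries, about the 50.0, 55.8, 58.2 and 37.2 CPM of free RNA.

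Egfr (ENSMUSG00000020122, chromosome 11, 16752203 to 16918158, plus strand) was the most often counted of the 9 genes, with 58927 UMIs. Hepatocyte-like nuclei had 1266 and 1553 CPM in CKO and 1307 and 1346 CPM in WT libraries, and held 73.0% to 95.8% of the Egfr UMIs of named nuclei. No other class of the 5 came near these values. Cholangiocyte-like nuclei had 372 and 341 CPM in CKO and 413 and 358 CPM in WT libraries, and mesenchymal-like nuclei had 292 and 390 CPM in CKO and 376 and 344 CPM in WT libraries. Both classes lay at 2.01 to 3.36 times the free RNA level in 3 libraries, while in CKO replicate 2, with the most Egfr in free RNA, they stood at 0.85 and 0.99 times it. Endothelial- and macrophage-like nuclei were at or below the free RNA level in every library. Egfros, an antisense RNA within Egfr, had 3044 UMIs of its own in the files, and the sources used here do not say whether counting used strand.

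Erbb2 (ENSMUSG00000062312, chromosome 11, 98412470 to 98437716, plus strand) was counted 215 times, and its highest class mean was in cholangiocyte-like nuclei. They had 6.80 and 14.8 CPM in CKO and 8.81 and 14.0 CPM in WT libraries, on 10, 1, 39 and 9 UMIs, above the free RNA level in each. That level rests on few counts. It was 0.93 CPM in CKO replicate 2 and 0 CPM in WT replicate 2, where 1 UMI is enough to exceed it. Hepatocyte-like nuclei had 16 Erbb2 UMIs in all 4 libraries, out of 25733263 UMIs. Mien1, which overlaps Erbb2 on the other strand, had 2466 UMIs.

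Erbb3 (ENSMUSG00000018166, chromosome 10, 128567523 to 128589652, minus strand) was highest in hepatocyte-like nuclei, with 77.6 and 80.8 CPM in CKO and 98.3 and 53.5 CPM in WT libraries, 4.96 to 10.0 times the free RNA level. Cholangiocyte-like nuclei followed with 42.8 and 44.5 CPM in CKO and 37.0 and 34.1 CPM in WT libraries, 1.63 to 1.98 times that level, and the ranges of the 2 classes did not overlap. Endothelial-, mesenchymal- and macrophage-like nuclei ranged over 0.39 to 1.17 times the free RNA level.

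Erbb4 (ENSMUSG00000062209, chromosome 1, 68032186 to 69108059, minus strand) had its highest class mean in the biliary class, as did Erbb2. Cholangiocyte-like nuclei had 338 and 1410 CPM in CKO and 965 and 742 CPM in WT libraries, on 497, 95, 4273 and 478 UMIs, 12.1 to 22.3 times the free RNA level. The 2 CKO libraries stood 1 below and 1 above both WT libraries. Hepatocyte-like nuclei had 310 and 356 CPM in CKO and 327 and 174 CPM in WT libraries, 8.49 to 20.4 times the free RNA level. The cholangiocyte-like level was the higher in 4 of 4 libraries, while the ranges of the 2 classes overlapped through CKO replicate 1. The other 3 classes ranged over 0.63 to 1.81 times the free RNA level. Hepatocyte-like nuclei thus had both neuregulin receptors, Erbb3 and Erbb4, above free RNA, and the lowest Erbb2 mean of the 5 classes. Cholangiocyte-like nuclei had all 3 above free RNA in each library. In CKO replicate 2 this rests on 1 Erbb2 UMI and 3 Erbb3 UMIs, and any Erbb2 UMI there would exceed free RNA.

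The cholangiocyte-like class was made of a pair of clusters, formed without the 9 genes, that differed in these transcripts. The larger, led by Thsd4, Pdgfd, Sctr and Cftr, had 397 and 31 nuclei in CKO and 1235 and 263 in WT libraries. The smaller, led by Dab1 and Kcnip4, had 100 and 2 nuclei in CKO and 182 and 35 in WT libraries. Nrg1 stood at 578 CPM in CKO replicate 1 and 471 and 470 CPM in the WT libraries in the Dab1 cluster, against 94.6, 91.4 and 38.6 CPM in the same libraries of the Sctr cluster. Erbb4 went the other way, with 180 CPM in CKO replicate 1 and 387 and 250 CPM in the WT libraries in the Dab1 cluster, against 387, 1081 and 832 CPM in the Sctr cluster. Egfr stood at 581, 574 and 570 CPM in the Dab1 cluster and at 307, 381 and 320 CPM in the Sctr cluster. Met was closer, at 209, 215 and 170 CPM in the Dab1 cluster and 145, 188 and 114 CPM in the Sctr cluster. In these 3 libraries Nrg1, Egfr and Met were each higher and Erbb4 lower in the Dab1 cluster. The 12 cholangiocyte markers summed in the Dab1 cluster to 4901 CPM in CKO replicate 1 and 5696 and 5845 CPM in the WT libraries, beside 550, 733 and 539 CPM expected of free RNA. Of these markers 11, 9 and 6 had 5 UMIs or more and stood 1.5 times or more above free RNA. The free RNA estimate of this class is scaled by hepatocyte transcripts, so whether its nuclei hold hepatocyte RNA of their own was not tested.

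**Figure D3:**
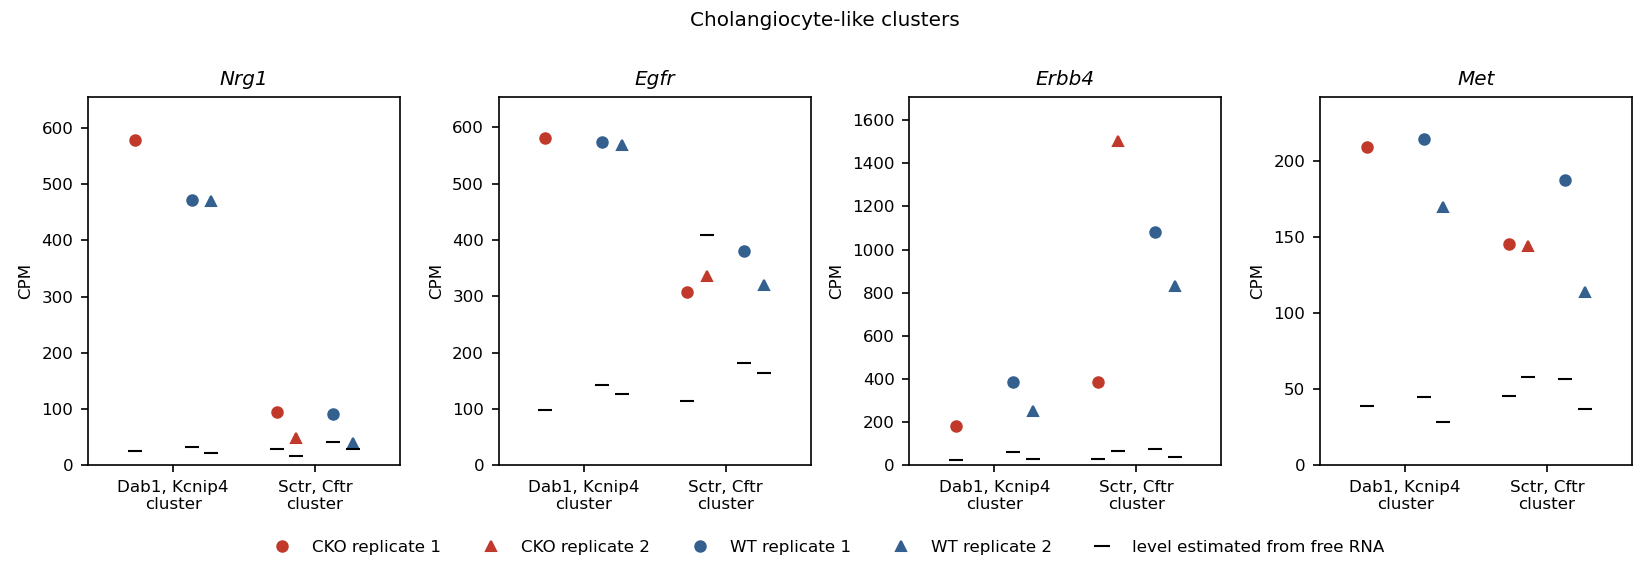
Nrg1, Egfr, Erbb4 and Met in the cholangiocyte-like clusters led by Dab1 and Kcnip4 and by Sctr and Cftr, in CPM, with 1 point for each library that has at least 20 nuclei of the cluster (CKO left of WT) and a black dash at the free RNA level. Nrg1 is higher and Erbb4 lower in the Dab1 cluster in each of the 3 libraries shown for both clusters.

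The knockout bears on these ligands and receptors through the difference between CKO and WT libraries within a class. No member was called in any class. In hepatocyte-like nuclei 0 of 13356 genes were called by edgeR's quasi-likelihood test with Benjamini-Hochberg adjustment (0%), and 237 had an unadjusted p under 0.05. In cholangiocyte-like nuclei 21 of 10298 genes were called (0.204%), 12 higher and 9 lower in CKO. In endothelial-like nuclei 0 of 10102 genes were called (0%), in mesenchymal-like nuclei 0 of 8644 (0%) and in macrophage-like nuclei 0 of 12180 (0%), with 521, 651 and 639 at an unadjusted p under 0.05. Of the 45 combinations of a member and a class, 32 had enough counts for the test, and none passed over all genes with edgeR or with DESeq2. Egf had enough in hepatocyte-like nuclei and Erbb2 in cholangiocyte-like nuclei alone, Areg in no class, and the other 6 members in all 5 classes. With 2 libraries against 2 an exact permutation test cannot give a two-sided p below 0.333.

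For Hgf the log2 change of CKO over WT was -0.037 (SE 0.43) in mesenchymal-like, -0.38 (SE 0.34) in endothelial-like and -0.16 (SE 0.29) in macrophage-like nuclei. In endothelial-like nuclei it was -1.12 without CKO replicate 1 and -0.020 without CKO replicate 2. In mesenchymal-like nuclei the value was 0.061 between the libraries numbered 1 and -0.28 between those numbered 2. Its means there were 765 ± 463 CPM in CKO and 890 ± 438 CPM in WT libraries (SD, n = 2 each), and the groups overlapped. Egf in hepatocyte-like nuclei had a log2 change of 0.90 (SE 0.45, adjusted p = 0.9997 by edgeR), 0.52 between the libraries numbered 1 and 1.33 between those numbered 2, and it was 1.39 without WT replicate 1 and 0.59 without WT replicate 2. Nrg1 had a log2 change of -0.36 (SE 0.78) in hepatocyte-like nuclei, 0.16 between the libraries numbered 1 and -1.73 between those numbered 2. Without CKO replicate 1 this change was -1.99 and passed the edgeR test (adjusted p = 0.0249), and without CKO replicate 2 it was 0.38 (adjusted p = 0.620). In cholangiocyte-like nuclei Nrg1 had a log2 change of 0.47 (SE 0.31), 0.60 between the libraries numbered 1 and -0.92 between those numbered 2.

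Nrg1 in endothelial-like nuclei had the smallest unadjusted p of all 32 tests. Its means were 58.7 ± 46.9 CPM in CKO and 151 ± 8.36 CPM in WT libraries (SD, n = 2 each). Its log2 change was -0.96 (SE 0.39, unadjusted p = 0.0358, adjusted p = 0.958 by edgeR), and it was lower in 2 of 2 CKO libraries, with -0.39 between the libraries numbered 1 and -2.42 between those numbered 2. The Col8a1, Dkk2 and Bmx sub-cluster, where Nrg1 is highest, made up 18 of 905 and 1 of 152 endothelial-like nuclei in CKO and 84 of 1352 and 18 of 240 in WT libraries. Without that sub-cluster, a setting chosen after seeing the data, the log2 change was -0.085 (SE 0.38, adjusted p = 0.9998 by edgeR). The sub-cluster was picked for its high Nrg1 and was scarcer in CKO, so leaving it out was bound to shrink the change. Within it Nrg1 was also lower in CKO replicate 1 than in both WT libraries. CKO replicate 2 had the lowest Nrg1 level of the libraries in each class tested, not in endothelial-like nuclei alone. Over all its barcodes Nrg1 stood at 37.4 CPM, against 95.3 CPM in CKO replicate 1 and 149 and 98.0 CPM in WT libraries. The cause of the endothelial difference was not tested.

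**Figure D4:**
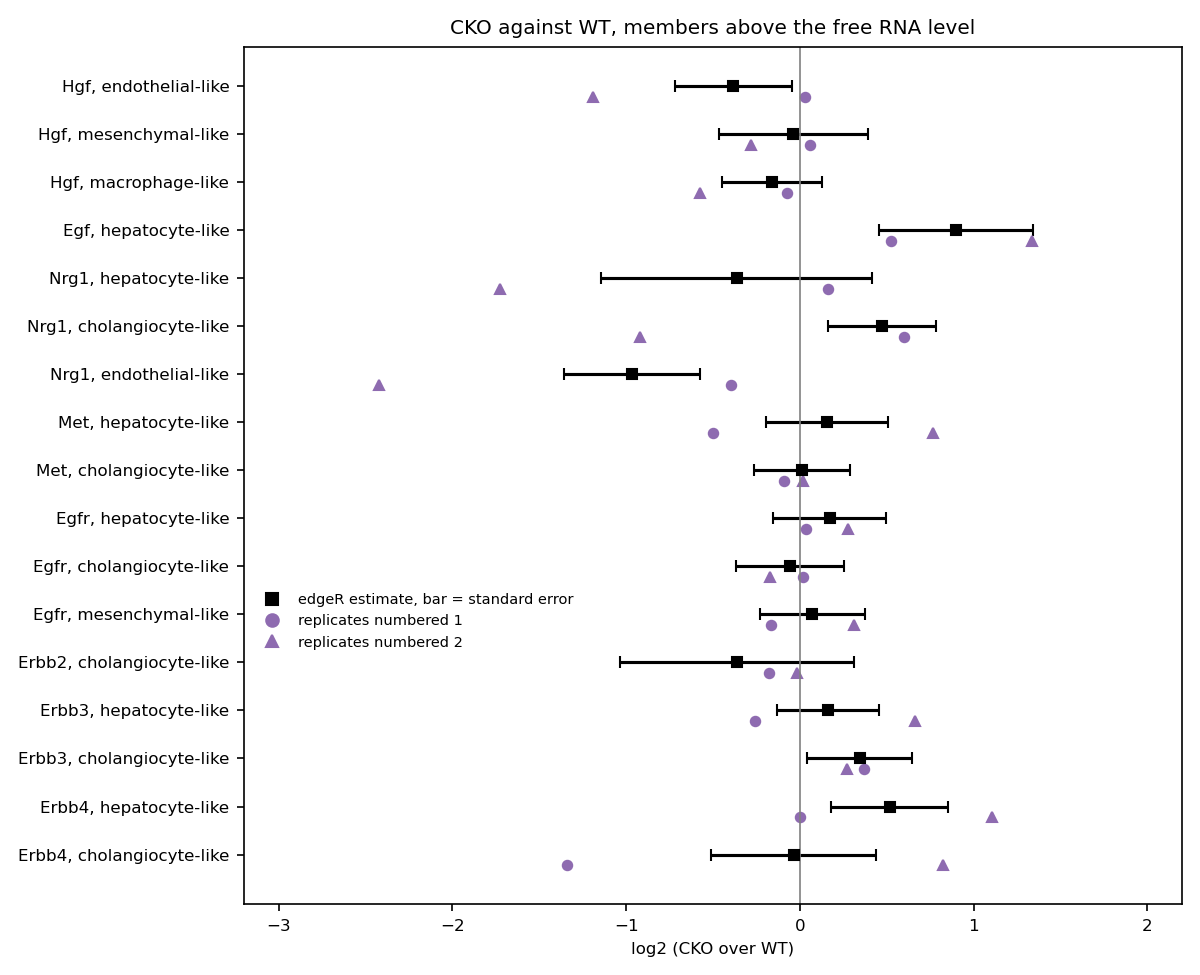
Log2 change of CKO over WT for the 17 combinations of a member and a class that lay above free RNA. Squares are edgeR estimates with their standard errors, and the circle and triangle are the changes between libraries numbered 1 and numbered 2. None passed the test over all genes. The 2 replicate numbers point in opposite directions for several combinations, among them Erbb4 and Nrg1 in cholangiocyte-like nuclei. Nrg1, Met and Erbb3 in hepatocyte-like nuclei and Hgf in endothelial- and mesenchymal-like nuclei do so too.

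Among the receptors, Met had a log2 change of 0.16 (SE 0.35) in hepatocyte-like and 0.011 (SE 0.28) in cholangiocyte-like nuclei. Egfr had 0.17 (SE 0.33) in hepatocyte-like nuclei (1409 ± 203 CPM in CKO and 1326 ± 27.3 CPM in WT libraries, SD, n = 2 each), -0.057 (SE 0.31) in cholangiocyte-like and 0.071 (SE 0.30) in mesenchymal-like nuclei. Erbb2 had -0.36 (SE 0.67) and Erbb3 0.34 (SE 0.30) in cholangiocyte-like nuclei, where both CKO libraries lay above both WT libraries for Erbb3. Those Erbb3 values rest on 63 and 3 UMIs in CKO and 164 and 22 UMIs in WT libraries. Free RNA would give 26.4 and 24.2 CPM in CKO and 18.7 and 18.9 CPM in WT libraries. With that level subtracted the groups overlapped, at 16.5 and 20.4 CPM in CKO and 18.4 and 15.3 CPM in WT libraries. Erbb3 had 0.16 (SE 0.29) and Erbb4 0.52 (SE 0.34) in hepatocyte-like nuclei. For Erbb4 the groups overlapped there in plain CPM. After TMM scaling Erbb4 stood at 301.4 and 388.8 CPM in CKO and 300.8 and 180.6 CPM in WT libraries. The libraries numbered 1 were thus almost equal, with a log2 change of 0.0029, against 1.10 between those numbered 2. The Erbb4 change there was 0.94 without WT replicate 1 and 0.20 without WT replicate 2. Each of these changes lay within 2 standard errors of 0, and a miss of the threshold does not show that the genotypes were alike.

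Erbb4 in cholangiocyte-like nuclei depended on which CKO library was kept. Its means were 874 ± 758 CPM in CKO and 853 ± 158 CPM in WT libraries (SD, n = 2 each). CKO over WT came to a log2 change of -0.036 (SE 0.48), with -1.34 between the libraries numbered 1 and 0.82 between those numbered 2. Without CKO replicate 2, which gave 33 nuclei and 95 Erbb4 UMIs, it was -1.29 and passed the edgeR test (adjusted p = 0.00168), and without CKO replicate 1 it was 0.81 (adjusted p = 0.412). In the Sctr cluster alone Erbb4 stood at 387 and 1506 CPM in CKO and at 1081 and 832 CPM in WT libraries, so the same pair of CKO values lay on either side of WT.

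The remaining ligands of the ERBB family were taken as a whole list of 8, named after their values were seen. Tgfa, a close relative of EGF, averaged 88.0 CPM over the 4 libraries in hepatocyte-like and 86.2 CPM in cholangiocyte-like nuclei, above the free RNA level in every library. Nrg4, an ERBB4 ligand, averaged 219 CPM in hepatocyte-like nuclei, at least 9.19 times the free RNA level. Hbegf, which binds EGFR and ERBB4, averaged 19.6 CPM in cholangiocyte-like nuclei, at least 5.16 times that level. Btc averaged 12.3 CPM in hepatocyte-like nuclei, at least 3.85 times that level, and Nrg2 averaged 8.38 CPM in macrophage-like nuclei, at least 2.02 times it. Ereg was counted 39 times in mesenchymal-like nuclei, at a mean of 11.6 CPM, and 10 times in the other 4 classes together. Nrg3 was counted 74 times and Epgn 1 time in the 5 classes.

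The genes that activate HGF or restrain that step were a list of 9, also given whole. St14 (matriptase), a membrane protease that cleaves pro-HGF, averaged 50.0 CPM in cholangiocyte-like nuclei, at least 7.40 times the free RNA level, and 2.97 CPM in hepatocyte-like nuclei. Spint2, an inhibitor of such proteases, averaged 140 CPM in cholangiocyte-like and 79.8 CPM in hepatocyte-like nuclei, and its relative Spint1 16.4 CPM in cholangiocyte-like nuclei. Plat averaged 12.1 CPM in cholangiocyte-like and Plau 9.86 CPM in macrophage-like nuclei. Hgfac, the circulating HGF activator, averaged 46.9 CPM, Plg 671 CPM and Mst1, an HGF-like ligand, 68.3 CPM in hepatocyte-like nuclei, each at least 2.35 times the free RNA level. Mst1r, the receptor of Mst1, was counted 11 times in the 5 classes.

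The 7 pathway lists, of 63 genes in all, held no called gene in any class with edgeR or DESeq2. Of 52 tested list genes in hepatocyte-like nuclei 0 had an unadjusted p under 0.05, as did 2 of 49 in cholangiocyte-like, 2 of 44 in endothelial-like, 3 of 42 in mesenchymal-like and 2 of 51 in macrophage-like nuclei. Over all genes the share at that level was 1.77%, 5.93%, 5.16%, 7.53% and 5.25% in the same order. The median log2 change of the tested list genes was 0.0060, 0.013, 0.092, 0.095 and 0.058 in that order, and that of all tested genes 0.011, -0.015, 0.0066, 0.011 and 0.0025. Of the genes with the smallest p in each class, Ccnd1 (cyclin D1), which drives entry into the cell cycle, had log2 changes of 0.70 (SE 0.27, adjusted p = 0.590) in cholangiocyte-like, 1.04 (SE 0.30, adjusted p = 0.906) in endothelial-like and 0.95 (SE 0.35, adjusted p = 0.901) in macrophage-like nuclei by edgeR. Phlda1 had 0.998 (SE 0.34, adjusted p = 0.557) in mesenchymal-like, 0.98 (SE 0.28, adjusted p = 0.895) in macrophage-like and 0.90 (SE 0.50) in hepatocyte-like nuclei. Mst1 had 1.08 (SE 0.32, adjusted p = 0.913) in endothelial-like nuclei, where its level ranged over 0.71 to 1.58 times that of free RNA. Lrig1, which restrains ERBB receptors, had -1.15 (SE 0.48, adjusted p = 0.630) in mesenchymal-like nuclei, and Plat had 1.10 (SE 0.52, adjusted p = 0.835) in cholangiocyte-like nuclei. An unadjusted p above 0.05 was found for Rhbdf1 (-1.002, SE 0.54) in cholangiocyte-like, Gab1 (-0.48, SE 0.26) in endothelial-like, Spint2 in macrophage-like (0.56, SE 0.28) and hepatocyte-like (0.28, SE 0.19), and Jun (-0.56, SE 0.36) in hepatocyte-like nuclei.

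Genes whose pattern followed a member most closely were sought over 20 points, the 5 classes in the 4 libraries, among 12594 genes with at least 200 UMIs. The points share libraries and classes, so Pearson's r of log2(CPM + 1) is a description. Hgf was most like Zfpm2 (r = 0.946), Tmem47 (0.937) and Adamts10 (0.928). Met was most like Epb41l5 (0.961), 9030622O22Rik (0.935) and Pik3c2g (0.928), and Egfr was most like Klf12 (0.951), Rabgap1l (0.945) and Garem1 (0.940). Nrg1 was most like Rapgef2 (0.895), Dhx32 (0.893) and Nox4 (0.892). Erbb3 was close to Slc16a12 (0.936) and Pter (0.899), and Erbb4 was most like Stxbp6 (0.957), Ddo (0.950) and Rab3ip (0.937). Egf, with few counts, was most like Prkdc (0.874), Bdnf (0.851) and Med13 (0.841).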

How the data were processed

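The deposited values are raw UMI counts per gene and barcode, which the authors made with Cell Ranger 5.0.1 on mm10, per the submitters' processing notes. Use of intronic reads or strand is not given in the sources used here. Nuclei were isolated from frozen liver tissue in a homogenate containing paraformaldehyde, per the labels' protocols.

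A minimum of 500 genes removed no barcode, and the highest Scrublet scores (0.8% per 1000 barcodes) were dropped. Values scaled to 10000 and logged were clustered without the 9 members (2000 variable genes, 30 principal components, 15 neighbours, Leiden resolution 1, 22 clusters; scanpy 1.11.5). A class name required 3 or more markers with 20 UMIs or more, 1.5 times or more above free RNA and, hepatocytes apart, 2 times or more above the remaining barcodes. Sub-clusters used 15 components after centring each library. A sub-cluster name required 3 or more markers with 5 UMIs or more. These had to stand 1.5 times or more above free RNA and above the other nuclei of the class. The free RNA profile of a library is the sum of its lowest-UMI 10% of barcodes, scaled by secreted hepatocyte transcripts (mitochondrial ones for hepatocyte-like nuclei).

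UMIs summed by class and library were tested with the quasi-likelihood test of edgeR 4.0.16 (TMM, filterByExpr, two-sided, Benjamini-Hochberg over all genes of the class, called under 0.05) and with DESeq2 1.42.0 as an alternative. The code was tested on simulated data. Changes between same-numbered libraries add a prior count of 2. Log2 changes are given for members 1.5 times or more above free RNA in 3 of 4 libraries with 50 UMIs or more. Besides the members and Rbpj, the named genes are the 3 pathway genes with the smallest p in each class, the 3 genes most like each member with at least 200 UMIs, and 2 lists given whole after their values were seen. Some genes that this rule names are not reported here. Members, lists and tests were chosen with earlier results of these data known. No label pairs the libraries, so the tests have no block. Positions are from GENCODE M21 (GRCm38).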

Additional observations from a re-analysis of the deposited data

Results flagged for a closer look

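Neo-PIGCN21AN, 1 of 7 added sequences in the count files and no part of the comparisons above, had a higher CPM in both CKO libraries than in both WT libraries. It was counted 100 and 20 times in CKO replicates 1 and 2, at 2.63 and 1.63 CPM, and 36 times and 1 time in WT replicates 1 and 2, at 0.789 and 0.0719 CPM. EYFP was counted in all 4 libraries, 20 and 39 times in CKO and 265 and 8 times in WT, and eGFPcre 5 and 4 times in CKO and 54 and 0 times in WT. The labels do not say which animals carry these sequences. The groups of 2 libraries are too small for a search for outlying samples.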

How the results depend on the processing

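For the 17 combinations of a member and a class above free RNA, no setting tried called a member other than the 2 library omissions named in the report. The other tested combinations were looked up with DESeq2 alone, which called none. Counts of called genes moved widely, and the cause was not tested. Hepatocyte-like nuclei had 2 called genes with DESeq2, and 0 to 330 with 1 library left out. Cholangiocyte-like nuclei had 0 with DESeq2, 117 with no count filter, 0 with sums thinned to equal totals, 0 at Leiden resolution 2, 0 with the members among the variable genes, 6 without the Dab1 and Kcnip4 cluster, and 0 to 259 with 1 library left out. Endothelial-like nuclei had 1 with DESeq2, 90 with no count filter, 15 with the replicate number as a block, and 0 to 420 with 1 library left out. Mesenchymal-like nuclei had 1 with DESeq2, 139 with no count filter, and 26 to 222 with 1 library left out. Macrophage-like nuclei had 3 with DESeq2, 128 with no count filter, 3 with the replicate number as a block, and 0 to 508 with 1 library left out.

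The block left 0, 30 and 0 calls in hepatocyte-, cholangiocyte- and mesenchymal-like nuclei. Same-numbered libraries deviated together with r between 0.074 and 0.27 over genes, and with 2 pairs the numbers are only a hint of pairing.

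Small log2 changes turned sign, and none of these passed the test. Met in cholangiocyte-like nuclei (0.011) stood at -0.0071 with DESeq2, -0.015 with no count filter, -0.058 with the block, -0.082 with no doublet removal, -0.0068 with free RNA subtracted and -0.026 without the Dab1 and Kcnip4 cluster. Egfr in cholangiocyte-like nuclei stood at 0.63 when thinned, and in mesenchymal-like nuclei at -0.19 with no doublet removal and -0.49 with free RNA subtracted. Erbb4 in cholangiocyte-like nuclei stood at 0.075 with DESeq2, 0.099 when thinned and 0.079 with no doublet removal. Hgf in mesenchymal-like nuclei stood at 0.064 with no doublet removal and 0.15 with free RNA subtracted. With 1 library left out the ranges were -0.27 to 0.49 for Met, -0.080 to 0.39 for Egfr, -1.99 to 0.38 for Nrg1 and -0.14 to 0.57 for Erbb3 in hepatocyte-like nuclei, -0.20 to 0.21 for Met, -1.08 to 0.71 for Nrg1 and -1.29 to 0.81 for Erbb4 in cholangiocyte-like nuclei, -0.80 to 0.40 for Hgf and -0.21 to 0.32 for Egfr in mesenchymal-like nuclei, and -0.82 to 0.067 for Hgf in macrophage-like nuclei. Nrg1 in endothelial-like nuclei stayed negative, at -2.21 to -0.57, as did Hgf there, at -1.12 to -0.020. In hepatocyte-like nuclei Egf ranged over 0.59 to 1.39 and Erbb4 over 0.20 to 0.94, and in cholangiocyte-like nuclei Egfr ranged over -0.099 to -0.011, Erbb2 over -0.45 to -0.12 (2 of 4 omissions left enough counts) and Erbb3 over 0.23 to 0.43. In an arm left with 1 library, that library is assumed to vary like the others.

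Of 85 recomputed class levels, 79 moved by less than 1 SD over libraries. Of the 6 others, 5 came from subtracting free RNA, which lowered Hgf in macrophage-like nuclei to 38.6 CPM and Egfr in mesenchymal-like nuclei to 134 CPM. The limit of 1000 UMIs removed no barcode, so its 17 levels, counted among the 79, could not move. Depth limits Egf, Areg and Erbb2 most.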

Other observations

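Mesothelial-like nuclei, the covering layer of the liver, had 231 and 134 CPM of Met in CKO and 198 and 140 CPM in WT libraries, on 8, 8, 26 and 5 UMIs in 12, 22, 49 and 17 nuclei, beside 50.9, 45.2, 65.6 and 39.7 CPM expected of free RNA. Egfr in the same nuclei stood at 231 and 903 CPM in CKO and at 320 and 449 CPM in WT libraries, on 8, 54, 42 and 16 UMIs, beside 128, 321, 210 and 175 CPM expected of free RNA. Both receptors lay above the free RNA level in each library.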
